A study of Mus musculus with 16 samples.

Results

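Endothelial cells line every blood vessel of the brain. They hold the blood-brain barrier through tight junctions, such as those built from Cldn5, and they carry glucose, amino acids, iron and hormones into the tissue through named transporters while pumps such as Abcb1a return drugs to the blood. Along the vessel tree they are zoned: arteries, capillaries and veins share the barrier genes and differ in other genes, with transporters most abundant in capillaries and leukocyte adhesion proteins in veins. The cells described here are cortical endothelial cells in which no transcript of 4 arterial genes was counted, so they hold capillary and venous cells and also arterial cells in which those transcripts were missed.

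The cells came from Drop-seq libraries of fresh cortex, 1 library per mouse, at 17 months of age, made after perfusion with buffered saline to clear blood. In THY-Tau22 mice a transgene of human tau, with mutations found in frontotemporal dementia, is driven in neurons by the Thy1.2 promoter, so the transgene is not directed to endothelial cells; wild-type (WT) mice were their littermates. Of 16 libraries, 2 tables labelled WT male and THY-Tau22 male held 1 library (239 of the 256 and 275 cells carry the same barcodes) and were left out, which leaves 3 males of each genotype, 3 WT females and 5 THY-Tau22 females. Nothing says how the litters were spread over the groups, so p-values measure the spread between these mice. One animal number occurs in 2 titles, that of THY-Tau22 female replicate 1 and that of WT male replicate 1; sex-linked genes matched the labels of both libraries, which were kept as separate mice.

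A barcode was taken as such a cell when it had 200 to 7000 detected genes, at least 3 unique molecular identifiers (UMIs, which count a captured transcript once) summed over Cldn5, Flt1, Slco1a4, Itm2a, Ly6c1 and Abcb1a, at most 1 UMI summed over 10 genes of microglia, astrocytes, oligodendrocytes, precursors, neurons and mural cells, and 0 UMIs of the arterial genes Bmx, Gkn3, Sema3g and Vegfc. This gave 3081 cells of the 24578 barcodes in the gene range (12.5%) in 14 libraries, 123 to 351 cells per mouse. The median cell had 533 UMIs and 338 genes, with library medians of 443 to 699 UMIs, and 78131 to 279197 UMIs per mouse lay in these cells. No barcode of a cell was shared by any of the 91 pairs of the 14 libraries. Just inside the limits lay 230 cells with 3 endothelial UMIs and 510 cells with 1 UMI of another cell type, and just outside lay 262 barcodes with 2 endothelial UMIs and 184 with 2 UMIs of another cell type. A further 1037 barcodes met the marker limits with fewer than 200 genes. Doublets were kept, and Scrublet marked 187 of the cells (6.07%), though it marked no cell in THY-Tau22 male replicate 3 and THY-Tau22 female replicate 4.

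The 6 endothelial genes chose the cells, so their levels are a description. Flt1, a receptor for vascular endothelial growth factor, was counted in 92.9% of the cells, Abcb1a in 77.3%, Cldn5 in 62.8%, Slco1a4, an organic anion transporter, in 62.0%, Ly6c1 in 55.3% and Itm2a in 48.4%. In 5767 microglia the same 6 genes were found in 0.676% to 3.45% of cells at a similar median depth of 555 UMIs. Those microglia were chosen by genes of their own and by at most 1 UMI summed over these 6 genes. Their low shares were thus fixed by the choice. Endothelial genes that the rule did not use were also found more often in these cells than in those microglia. Thinned to 300 UMIs per cell, Pecam1, the junction protein CD31, was found in 16.9% of the cells and 0.735% of microglia, the glucose transporter Slc2a1 in 16.4% and 0.717%, the angiopoietin receptor Tek in 11.7% and 0.287%, and Cdh5, the cadherin of endothelial adherens junctions, in 7.00% and 0.0717%. Slc1a2, the glutamate transporter of astrocytes, was found in 10.8% of the thinned cells and in 9.27% of microglia, and the source of these transcripts was not tested. Plvap, a marker of endothelium with pores, had 0 UMIs in all 3081 cells, which allows a share of cells with a UMI of up to 0.0974%.

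Among genes outside the rule, several stood far above the other barcodes of the same libraries. As CPM, counts scaled to the total of the cells in a library, Bsg, the basigin chain that accompanies lactate transporters, lay at 4431 against 545 in all other kept barcodes, a ratio of 8.13. Cxcl12, a chemokine, lay at 3054 and was 11.5 times its level elsewhere, and Sptbn1, a spectrin of the membrane skeleton, at 3944 and 5.50 times. Ratios of 12.6 to 21.3 belonged to the monooxygenase Fmo2 (21.3), Ctla2a (15.7), the organic anion transporter Slc22a8 (14.4), the matrix protein Hmcn1 (13.4), the carbonic anhydrase Car4 (12.9) and Nostrin (12.6), which binds endothelial nitric oxide synthase. Some of these levels were close to those of endothelial cells with an arterial UMI, on UMIs summed over all mice. Sptbn1 lay at 4031 CPM here and 3943 there, Bsg at 4182 and 3591, and Cxcl12 at 3007 and 2240. Fmo2 (193 and 57.7) and Car4 (385 and 115) differed more. The ratios to the other barcodes describe the gate and carry no test. Haemoglobin transcripts also ranked here, with Hbb-bs at 21.8 times its level elsewhere, and they came unevenly. Hbb-bs lay at 11195 CPM (here and in what follows on library totals scaled by TMM, edgeR's normalization) in THY-Tau22 female replicate 4, at 1795 in THY-Tau22 female replicate 3, at 1475 in THY-Tau22 male replicate 3, at 1103 in WT female replicate 2 and at most at 144 in the other 10 mice.

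The share of these cells among kept barcodes was lower in THY-Tau22 mice when both sexes were tested together. It was 13.9%, 12.8% and 14.7% in the 3 WT males and 11.9%, 11.8% and 8.83% in the 3 THY-Tau22 males. In females it was 14.8%, 15.3% and 12.9% in WT mice and 12.8%, 11.1%, 12.4%, 9.26% and 12.5% in THY-Tau22 mice. Neither pair of groups overlapped, although the nearest female values were 12.8% and 12.9%. The difference was -2.99 percentage points in males (13.8% ± 0.934 and 10.8% ± 1.72, SD, n = 3 each; exact permutation test, two-sided, p = 0.10, which is the smallest value for 3 against 3) and -2.74 in females (14.4% ± 1.29, n = 3, and 11.6% ± 1.47, n = 5, exact permutation p = 0.0357, 0.0714 adjusted over 4 tests). Over both sexes, permuting genotype within each sex gave -2.86 points with an exact p of 0.00179 over 1120 assignments (0.00714 adjusted over the same 4 tests), and the sexes differed by -0.255 points (exact permutation p = 0.911).

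**Figure D1:**
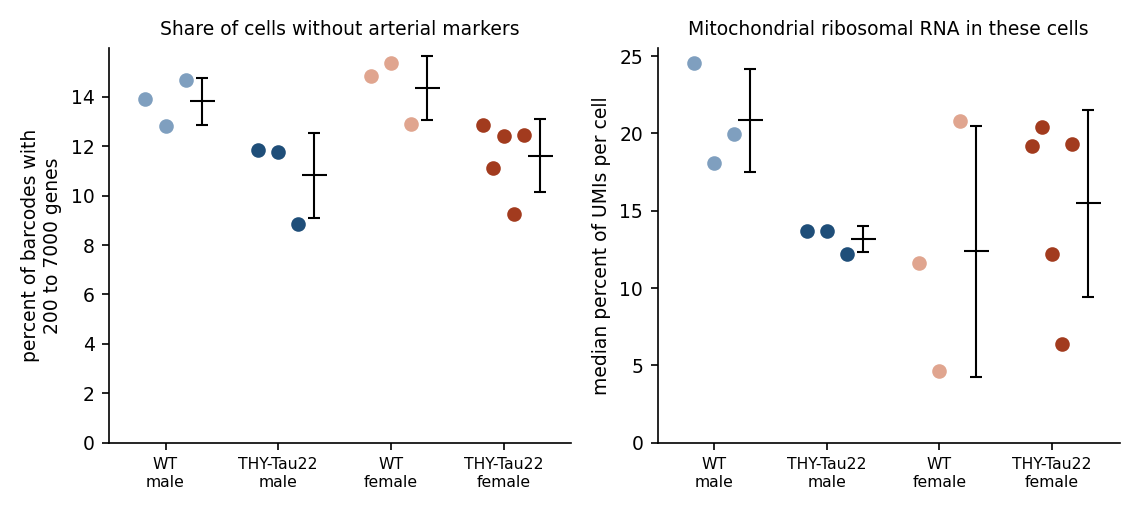
Left, the share of endothelial cells without arterial markers among barcodes with 200 to 7000 genes (percent, y axis) for each mouse in 4 groups; right, the median share of a cell's UMIs that came from the mitochondrial ribosomal RNAs mt-Rnr1 and mt-Rnr2 (percent). Points are mice and bars are the group mean ± SD; the shares of THY-Tau22 mice lie below those of WT mice of the same sex, and the ribosomal RNA share is 12.2% to 13.7% in THY-Tau22 males against 18.1% to 24.5% in WT males.

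The share is a part of a whole, so fewer endothelial cells and more barcodes of other kinds cannot be told apart. Taken over all 3000 barcodes of a table instead, the difference over both sexes was -1.64 points (exact permutation p = 0.212), and among barcodes with at least 500 genes it was -3.37 points (p = 0.075, exact permutation test). Leaving microglia out of the denominator gave -3.64 points (exact permutation p = 0.00804). The lowest shares, 8.83% and 9.26%, belonged to 2 of the 4 mice with Hbb-bs above 1000 CPM, and the highest, 15.3%, to another of them, and the part of blood in the result was not tested. Endothelial cells with arterial markers also had lower mean shares of kept barcodes in THY-Tau22 mice. These were 3.18% in WT and 2.12% in THY-Tau22 males, and 2.67% and 2.29% in females. The difference over both sexes was -0.724 points (exact permutation p = 0.0732).

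Cells without arterial markers were then set against the 629 endothelial cells of the same mice that had at least 1 UMI of Bmx, Gkn3, Sema3g or Vegfc. The 20 genes of the rule were left out, so the genes tested took no part in the split, and each mouse gave both sums. Of the capillary genes and transporters tested, 8 of 13 and 9 of 15 were called higher in the cells without arterial markers, and of the artery genes and immediate early genes 5 of 7 and 6 of 17 were called lower. Of 1564 genes tested with edgeR's quasi-likelihood test with the mouse as a block, 116 passed at an adjusted p under 0.05 and a log2 fold change of at least 0.5 either way, 54 higher (3.45%) and 62 lower (3.96%) in cells without arterial markers. The arterial cells were deeper, with a median of 788 UMIs, and 53.1% of them rested on a single arterial UMI. After every cell was thinned to 300 UMIs, 38 of the 116 genes could still be tested, all 38 with the same sign, and 33 were called again. With no filter on low counts the median of all genes moved to 0.38, and 340 genes were called higher and 79 lower.

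Of 20 artery genes outside the rule, 7 could be tested, and 5 were called, all lower in the cells without arterial markers (median log2 fold change of the 7, -1.05; of all genes tested, -0.02). Mgp, matrix Gla protein, an inhibitor of vessel calcification, lay at 43.1 to 519 CPM with a median of 226 in cells without arterial markers and at 108 to 4240 with a median of 942 in cells with them. It was lower in 13 of 14 mice, and the log2 fold change was -2.28 ± 0.17 (adjusted p = 4.14e-19 by edgeR; errors of fold changes are SE). Stmn2, a tubulin-binding protein best known in neurons, had medians of 258 and 823 CPM and was lower in all 14 mice (-1.68 ± 0.12). Tm4sf1, a membrane protein of endothelial cells, was also lower in 14 of 14 mice (-1.35 ± 0.11, medians 386 and 982 CPM). Edn1, the vasoconstrictor endothelin 1, differed by -0.77 ± 0.10 and Clu, the chaperone clusterin, by -1.05 ± 0.19. Sox17, a transcription factor of arterial identity, was at -0.43 ± 0.11, under the fold limit.

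Of 13 capillary genes, all tested, 8 were called higher in the cells without arterial markers and 0 lower (median 0.86). Car4, a carbonic anhydrase on the luminal membrane, lay at 323 to 960 CPM with a median of 521, against 32.1 to 482 with a median of 164 in arterial cells. It was higher in all 14 mice (1.68 ± 0.17, edgeR adjusted p = 7.07e-13). Slc16a1, the lactate and ketone transporter MCT1, had medians of 532 and 199.8 CPM (1.50 ± 0.16, 14 of 14 mice), and Tfrc, the transferrin receptor that takes up iron, 616 and 204 CPM (1.33 ± 0.15, 13 of 14 mice). Hmcn1 (1.44 ± 0.22), Ivns1abp (1.02 ± 0.26), the large amino acid transporter chain Slc7a5 (0.96 ± 0.21), Slc22a8 (0.86 ± 0.23) and Mfsd2a, which carries lysolipids with docosahexaenoic acid and limits transcytosis (0.73 ± 0.20), were the others. Cxcl12 (0.43 ± 0.07) and the growth factor receptor Kdr (0.45 ± 0.12) were under the fold limit, and Tsc22d1 had the opposite sign (-0.39 ± 0.08). Thinned to 300 UMIs per cell, 5 of the capillary genes could be tested, 4 were positive, 1 was called higher and 0 lower, and the median was 0.42.

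**Figure D2:**
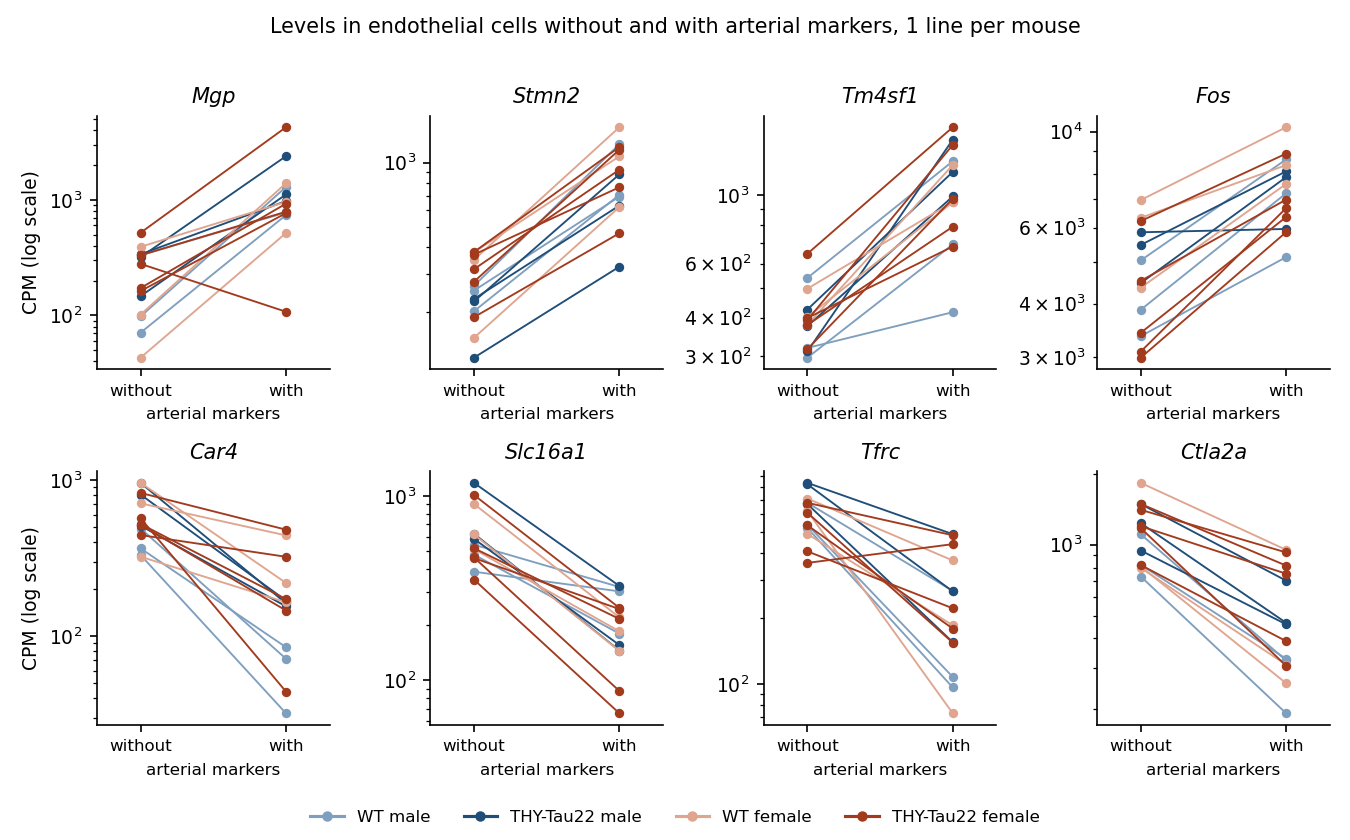
Level of 8 genes (CPM, log scale, y axis) in endothelial cells without and with arterial markers, with 1 line for each of the 14 mice, coloured by group. Stmn2, Tm4sf1 and Fos are lower without arterial markers in all 14 mice and Mgp in 13, while Car4, Slc16a1 and Ctla2a are higher in all 14 and Tfrc in 13.

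Of 15 tested nutrient and hormone transporters, 9 were called higher in cells without arterial markers and 0 lower (median 0.67). After thinning, 6 could be tested, 2 were positive and both were called, and the median turned to -0.13. Of the 9, 4 are also in the capillary list. The other 5 were the cationic amino acid transporter Slc7a1 (0.67 ± 0.12), Slc3a2, the heavy chain that pairs with Slc7a5 (0.75 ± 0.18), the glutamine transporter Slc38a3 (0.87 ± 0.20), the iron exporter Slc40a1 (0.82 ± 0.18) and the zinc transporter Slc39a10 (0.56 ± 0.09). Transport was not uniformly higher: the glucose transporter Slc2a1 differed by -0.14 ± 0.10 and the thyroid hormone carrier Slco1c1 by -0.04 ± 0.07, neither called. The drug efflux pump Abcg2 was higher (0.63 ± 0.12), and so was the insulin-like growth factor receptor Igf1r (0.80 ± 0.09). Among the genes with the smallest p, Ctla2a (1.14 ± 0.11) was higher in all 14 mice, while Timp3, an inhibitor of metalloproteinases (-1.02 ± 0.08), the metalloproteinase Adamts1 (-1.12 ± 0.09), Crip1 (-1.27 ± 0.11), Cdk19 (-1.45 ± 0.13) and the cyclin Ccnd2 (-1.91 ± 0.18) were lower in all 14. Fmo2 was higher by 1.66 ± 0.23 and the metallothioneins Mt1 and Mt2, near-identical metal-binding proteins, by 0.81 ± 0.14 and 0.99 ± 0.20. Of the vein list, Tmsb10 was called higher (1.45 ± 0.16). Among transcription factors and matrix genes, Epas1 (-0.64 ± 0.09), Itgb1 (-0.51 ± 0.09) and Igfbp7 (-0.56 ± 0.08) were lower.

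Of 17 immediate early genes, which are switched on within minutes of a stimulus, tissue dissociation included, all 17 had a negative sign, 6 were called lower in cells without arterial markers and none higher (median -0.46). Fos lay at 2997 to 6948 CPM with a median of 4488 in these cells and at 5124 to 10244 with a median of 7386 in arterial cells, lower in 14 of 14 mice (-0.68 ± 0.06, edgeR adjusted p = 3.21e-14). Atf3 (-0.69 ± 0.08), Egr1 (-0.62 ± 0.09), Fosb (-0.57 ± 0.08), Nr4a1 (-0.71 ± 0.12) and Cyr61 (-0.71 ± 0.12) were the others, and Junb (-0.48 ± 0.09) was just under the fold limit. Thinned, 14 of the 16 still testable genes were negative and 5 were called. With no filter on low counts 0 of 19 were called, 6 were positive and the median was -0.14, where that of all genes was 0.38.

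Transcripts of other cell types moved with the same split. The astrocyte gene Slc1a2 (0.76 ± 0.17, 12 of 14 mice) and the microglial protease Ctss (0.81 ± 0.23) were higher in the cells without arterial markers, while the mural gene Rgs5 was lower (-0.71 ± 0.09). The part of free RNA and of mural transcripts in the comparison was not tested.

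Within the cells without arterial markers, 386 (12.5%) had at least 1 UMI of the vein genes Vwf, Vcam1, Nr2f2, Ackr1 or Selp, at 8.21% to 17.3% of the cells per mouse. Summed per mouse and set against the other cells of the same mouse, with the vein genes left out too, 22 of 1041 genes were called, 15 higher (1.44%) and 7 lower (0.672%). With no filter on low counts the balance turned, with 17 called higher and 361 lower and the median of all genes at -0.42. Tmsb10, a small actin-binding protein and a member of the vein list, lay at 641 to 2723 CPM with a median of 1267 in the cells with a vein UMI, and at 232 to 1450 with a median of 636 in the others. It was higher in all 14 mice (1.02 ± 0.12, edgeR adjusted p = 8.86e-10). The genes that made the split had similar levels in cells without and with arterial markers, on unscaled UMIs summed over all mice. Vwf lay at 80.1 and 77.0 CPM, Vcam1 at 92.0 and 111, and Nr2f2 at 106 and 102. Nr2f2 was at 478 CPM in mural cells. In the cells without arterial markers Ackr1 had 2 UMIs and Selp 0. Whether the split separates venous cells was not tested.

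The other genes higher in cells with a vein UMI included Nfkbia, the inhibitor and target of NF-kappa B (0.77 ± 0.10), Ier3 (1.04 ± 0.14), the transglutaminase Tgm2 (1.05 ± 0.18), Nampt, an enzyme of NAD synthesis (1.02 ± 0.17), Polk (0.72 ± 0.13), Net1 (0.81 ± 0.18), the class I histocompatibility gene H2-K1 (0.56 ± 0.13), Mt2 (0.63 ± 0.18), Fn1 (0.50 ± 0.14) and Car4 (0.51 ± 0.14). Cxcl12 was lower in all 14 mice, at a median of 3092 CPM against 5310 (-0.74 ± 0.09). Of 11 tested capillary genes, Car4 was called higher and Cxcl12 lower, and the rest were not called, among them Tfrc (0.22 ± 0.15). In this list, 0 genes were called higher and 1 lower with no block for the mouse or after thinning, and 0 and 7 of 13 with no filter (median -0.73). Glul, the glutamine synthetase that astrocytes hold most of, was lower (-0.58 ± 0.14). Cells with a vein UMI were deeper, at a median of 766 against 516 UMIs, and after thinning to 300 UMIs, 8 of the 22 genes could be tested, all 8 with the same sign, and 4 were called again.

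**Figure D3:**
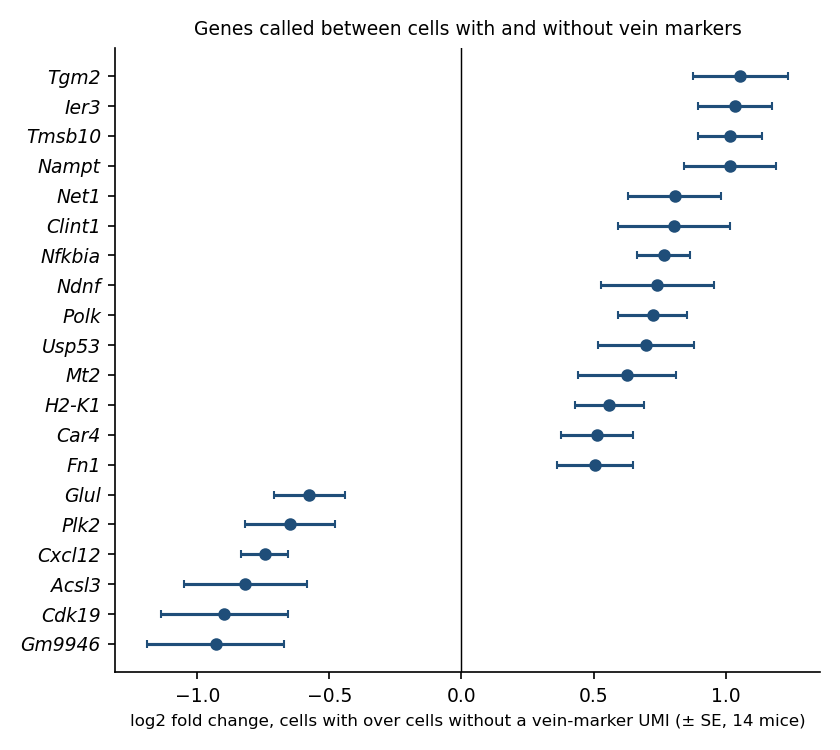
Log2 fold change (x axis) of 20 of the 22 genes called between cells with and without a vein-marker UMI among endothelial cells without arterial markers. Points are estimates over 14 mice paired within the mouse and bars are ± SE; Tgm2 (1.05), Ier3 (1.04), Tmsb10 (1.02) and Nampt (1.02) are among the higher genes and Cxcl12 (-0.74) among the lower.

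Genotype was compared on the UMIs summed per mouse, in 1 model over the 4 groups. Of 3180 genes tested with edgeR, 0 passed in males (0.0%), in females 0 (0.0%), 0 with the sexes combined (0.0%) and 0 for the interaction (0.0%). Without adjustment, 448 genes had p under 0.05 in males (8.24% of genes higher and 5.85% lower in THY-Tau22 mice), 89 in females, 152 with the sexes combined and 403 for the interaction (7.96% positive and 4.72% negative). DESeq2 called 2, 0, 0 and 2 genes in these 4 comparisons. In simulated data of the male comparison, 20% of log2 changes of 1 and 86% of log2 changes of 2 were recovered, with 3 false calls. The simulation gave every gene the same spread between mice (coefficient of variation 0.249). Its libraries differed only in depth, so these percentages need not hold for the real counts. In females against males, 4 genes passed (0.126%), all on the sex chromosomes: Xist, at 377 to 643 CPM in females and 0 UMIs in males, its antisense partner Tsix, and the Y-linked Ddx3y and Eif2s3y, which had 0 UMIs in females. Xist and Tsix overlap, and strand use in counting was not stated.

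In males, the smallest p values belonged to genes of antigen presentation. B2m (chr2:122147687-122153082, mm10), the light chain of class I histocompatibility molecules, lay at 722, 915 and 692 CPM in WT males and at 2120, 2520 and 2876 in THY-Tau22 males. The male groups did not overlap, and the log2 fold change was 1.69 ± 0.35 (adjusted p = 0.093 by edgeR, not called, and 0.0139 by DESeq2). H2-K1 (chr17:33996012-34000619), a class I heavy chain, lay at 296, 233 and 295 CPM against 608, 774 and 609 (1.27 ± 0.27, adjusted p = 0.093 by edgeR and 0.0139 by DESeq2). H2-K1, H2-D1 and H2-Q7 are close paralogs, and reads they share make each of them uncertain.

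Of 26 genes of class I presentation and the interferon response, 19 passed the filter in males. Of these, 18 had a positive sign, 11 were at an unadjusted p under 0.05 and higher, and 0 lower, with a median log2 fold change of 0.92 against 0.00 over all genes, 8.24% of which were higher at that p. In 12 of the 19, every THY-Tau22 male was above every WT male, as in 12.3% of all genes; in females no member of the list had every THY-Tau22 mouse above every WT mouse, against 0.849% of all genes. H2-D1 was at 464 ± 21.7 CPM in WT males and 1076 ± 107 in THY-Tau22 males (1.21 ± 0.33). Bst2, tetherin, an interferon-induced membrane protein, was at 30.2 ± 10.7 and 120 ± 22.3 CPM (1.94 ± 0.50). Psmb8, an immunoproteasome subunit (1.22 ± 0.44), Ifitm2 (2.11 ± 0.58), Ifitm3 (0.96 ± 0.35), Ly6e (0.92 ± 0.36) and H2-Q7 (2.27 ± 0.68) had unadjusted p values between 0.00107 and 0.0148 and adjusted ones of 0.176 to 0.29 by edgeR. Without each library in turn, 8 to 11 of the list were at that p, and with 0 UMIs of other cell types allowed, 9 of 18.

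**Figure D4:**
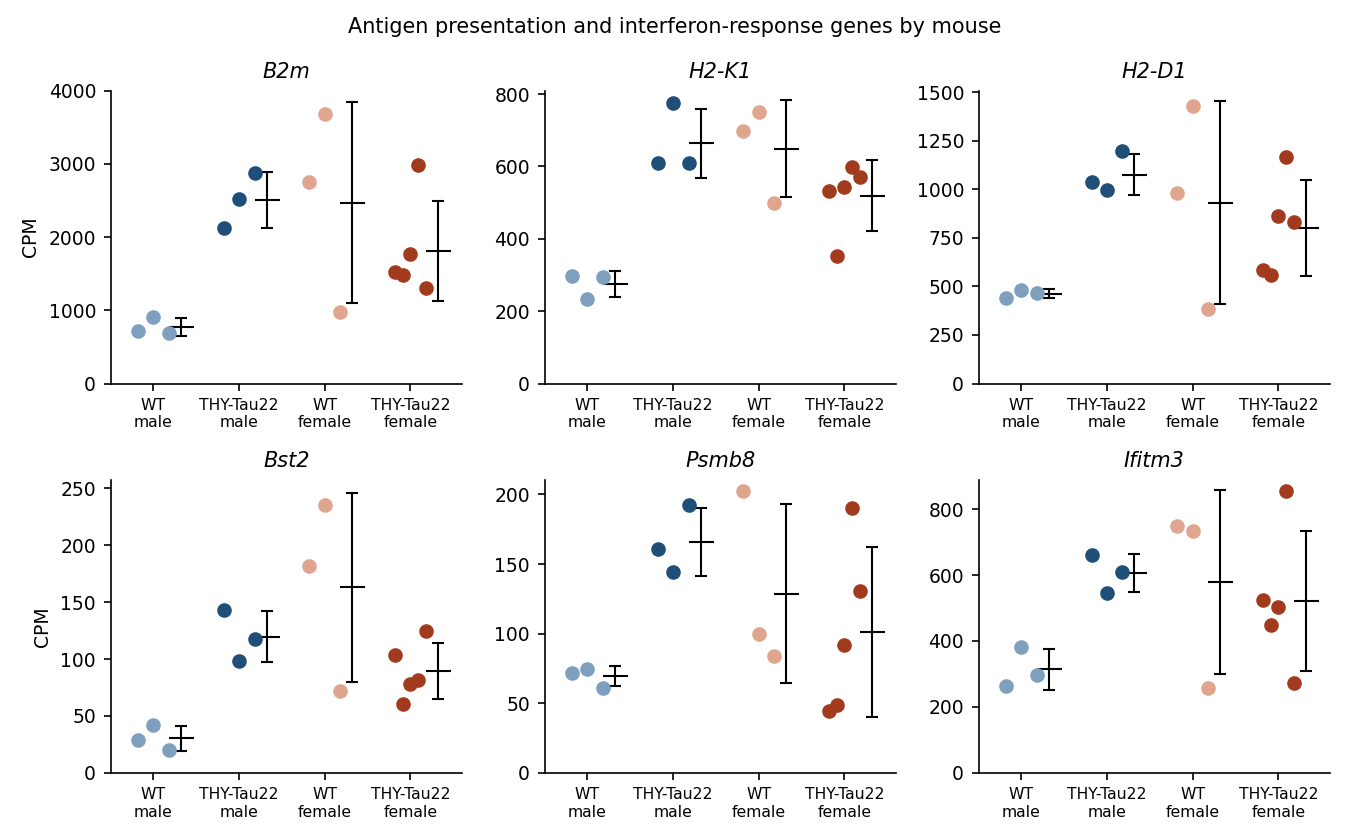
Level of B2m, H2-K1, H2-D1, Bst2, Psmb8 and Ifitm3 (CPM, y axis from 0) in endothelial cells without arterial markers, by mouse, in 4 groups. Points are mice and bars are the group mean ± SD; the 3 THY-Tau22 males lie above the 3 WT males for each gene, while the female groups overlap.

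In females, 4 of the 19 members were positive, the median was -0.29, and 0 were higher and 1 lower at an unadjusted p under 0.05 (1.04% and 1.76% of all genes). This direction rested on 1 library: without WT female replicate 2, 11 of 21 were positive and the median was 0.08. B2m lay at 2753, 3680 and 978 CPM in WT females, and at 1300 to 2989 with a median of 1521 in THY-Tau22 females, so the groups overlapped (-0.45 ± 0.30, and -0.82 to -0.02 without single libraries). H2-K1 was at 649 ± 133 and 519 ± 97.3 CPM (-0.31 ± 0.23). The difference between the sexes, tested as the interaction, was 2.14 ± 0.46 for B2m, 1.58 ± 0.36 for H2-K1 and 2.69 ± 0.62 for Bst2 (edgeR adjusted p = 0.152 for each), and it was not called. It was 2.64 ± 0.63 for Gm26669 and 2.30 ± 0.56 for the heat shock protein Hspa1a (adjusted p = 0.169 and 0.17). Leaving out WT female replicate 3, the WT female with B2m at 978 CPM, gave 177 interaction calls and 19 male calls in place of 0. This is 1 of 2 libraries whose titles carry MB22; without both, the counts were 87 and 18.

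Other measures of these cells moved with the male groups. The median mitochondrial ribosomal RNA share was 24.5%, 18.1% and 19.9% in WT males and 13.7%, 13.7% and 12.2% in THY-Tau22 males, with no overlap, in WT females it was 11.6%, 4.66% and 20.8%, and in THY-Tau22 females 6.37% to 20.4%. In WT females too, the mouse with the highest share, replicate 3, had the lowest B2m, and the mouse with the lowest share, replicate 2, had the highest. With this share as a covariate, male genes at an unadjusted p under 0.05 went from 448 to 112, those of the antigen presentation list from 11 to 4 of 19, and its median from 0.92 to 0.48. In females the list then had 9 of 19 positive and a median of -0.03. For the interaction, genes at that p went from 403 to 113, those of the list from 9 to 3 of 19, and its median from 1.09 to 0.36. All 6 tested microglial markers had a positive sign in males (median 1.22, 3 at an unadjusted p under 0.05), and the 10 markers together ranged from 320 to 621 CPM in WT males and from 456 to 1668 in THY-Tau22 males. Without THY-Tau22 male replicate 3 the microglial median was 0.35 and 0 of 7 were at that p, while the antigen presentation list kept a median of 0.87 with 9 of 20 at that p. The microglial sum was 739 to 1148 CPM in WT females and 558 to 978 in THY-Tau22 females. In males Hbb-bs lay at 1475 CPM in that same mouse and at most at 61.1 in the other 5. The part of ribosomal RNA content, microglial RNA and blood in the male differences was not tested beyond these values.

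Other gene groups in males also held no call. Of all genes tested in males, 8.24% were higher and 5.85% lower at an unadjusted p under 0.05. All 7 tested mitochondrial mRNAs were positive (median 1.01, 5 at an unadjusted p under 0.05), but with the ribosomal RNA share as a covariate 0 were at that p and the median was 0.49; mt-Cytb was at 957 ± 493 CPM in WT and 2514 ± 722 in THY-Tau22 males (1.38 ± 0.39). Of 9 tested metallothioneins and antioxidants, 7 were positive and 5 were higher at that p, with Mt2 at 1.60 ± 0.39 and Mt1 at 1.45 ± 0.42. Without THY-Tau22 male replicate 3 the median of this list went from 0.83 to 0.24, and with the covariate it was 0.21 with 2 of 9 at that p. Fth1, the ferritin heavy chain, was at 1.19 ± 0.33 and Klf2, a transcription factor induced by blood flow, at 1.15 ± 0.30. Other genes with small p were Phf20l1 (-1.15 ± 0.27), Hspa1a (1.62 ± 0.43), Cep290 (-1.59 ± 0.42) and Cox8a (1.55 ± 0.41), each at an edgeR adjusted p of 0.176.

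No barrier gene was called with genotype, and neither was any other of the 3180 genes tested. At an unadjusted p under 0.05, 8.24% of all genes were higher and 5.85% lower in THY-Tau22 males. In females these shares were 1.04% and 1.76%. Of 14 tested junction proteins, 1 was at an unadjusted p under 0.05 in males and 0 in females (medians 0.13 and -0.03), and of 21 transporters 2 and 0 (medians 0.13 and -0.04). The 13 capillary genes had 4 higher at that p in males (median 0.36) and 0 in females (-0.13), and of 8 tested artery genes outside the rule 3 were lower in males (median -0.21) and 0 in females. Medians of the 8 tested vein genes were -0.06 and -0.14. The 7 genes that the study listed for endothelial cells, chosen on these mice and so no independent evidence, had 1 higher and 3 lower at that p in males and 0 in females, with B2m the 1 higher and Malat1, a nuclear noncoding RNA, among the lower (-0.74 ± 0.33).

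**Figure D5:**
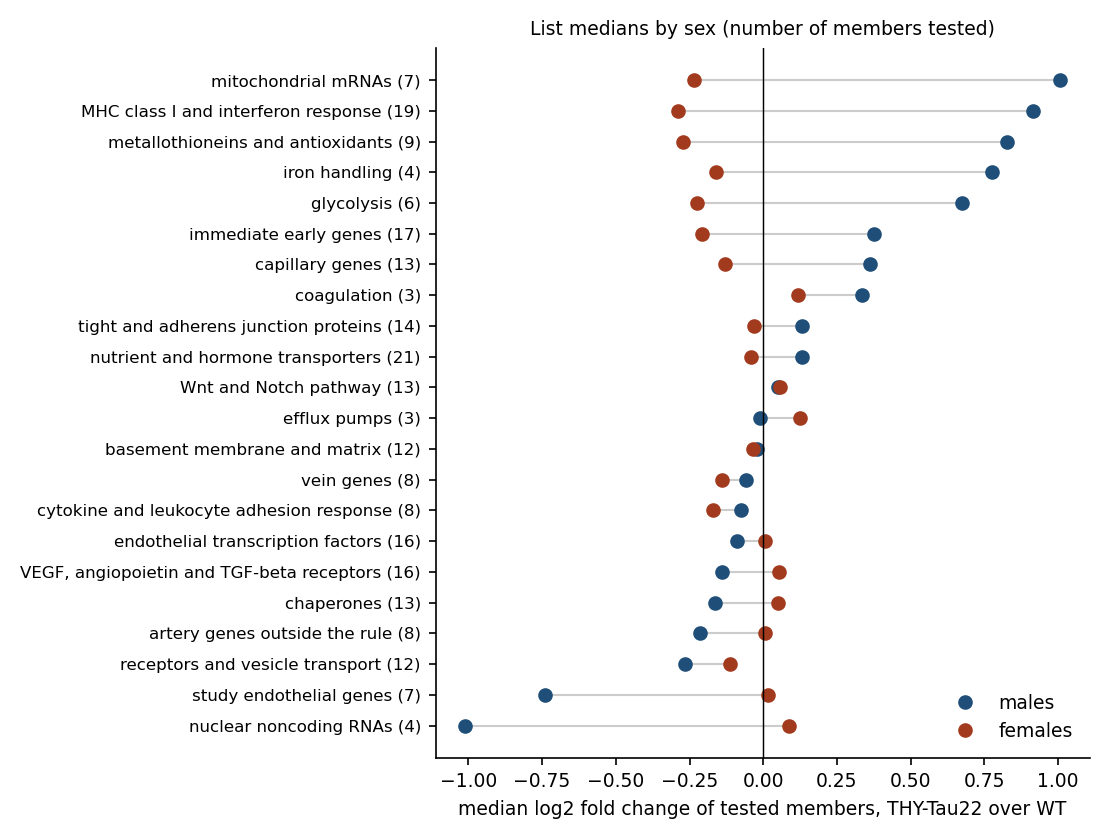
Median log2 fold change, THY-Tau22 over WT (x axis), of the tested members of 22 gene lists in males and in females, with the number of members tested in parentheses. The male medians run from -1.01 for nuclear noncoding RNAs to 1.01 for mitochondrial mRNAs, with antigen presentation and interferon genes at 0.92, while the female medians lie between -0.29 and 0.12.

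In females the genes with the smallest p were Ankrd37 (-1.43 ± 0.40), Arl6ip4 (-1.43 ± 0.40), the histone H3f3a (-1.23 ± 0.36), Rpl18-ps2 (-1.23 ± 0.39), a pseudogene and so uncertain, and Atp10a (1.00 ± 0.33), each at an edgeR adjusted p of 1. Over both sexes they were Plec, the cytoskeletal linker plectin (-1.11 ± 0.30), Arl6ip4 (-1.02 ± 0.29), Mt2 (0.91 ± 0.26), Atad2b (-1.11 ± 0.33) and Hnrnpul2 (-0.67 ± 0.21), each at an edgeR adjusted p of 0.935. Mt2 lay at 177, 108 and 71.3 CPM in WT males and 403, 304 and 449 in THY-Tau22 males, with no overlap. In females it lay at 435, 353 and 96.0 in WT mice and at 245 to 391 with a median of 342 in THY-Tau22 mice, with overlap.

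Depth and mitochondrial mRNA content were compared between the same groups. Median UMIs per cell were 526 ± 67.7 in WT and 570 ± 115 in THY-Tau22 males (exact permutation p = 0.70), and 537.5 ± 81.9 in WT and 529.5 ± 41.3 in THY-Tau22 females (exact permutation p = 0.875). The median mitochondrial mRNA share was 0.365% ± 0.141 in WT males and 0.94% ± 0.227 in THY-Tau22 males (SD, n = 3 each), with no overlap (exact permutation p = 0.10), and 0.79% ± 0.447 (n = 3) and 0.613% ± 0.147 (n = 5) in females (exact permutation p = 0.464). Over 12 tests of these measures the smallest adjusted p was 0.354, for the interaction in mitochondrial mRNA share.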

How the data were processed

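Drop-seq libraries of cortex from WT and THY-Tau22 mice were counted by the authors, who deposited 1 table of UMI counts per gene and barcode for each sample, not normalized, with 3000 barcodes in each. The submitters' processing notes name mm10; the counting settings for strand and multiply mapped reads were not given in the sources used here. The 14 libraries held 1041675 to 2237505 UMIs. Shares and floors cover counting error only.

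Counts of the selected cells were summed per mouse and tested in edgeR 4.0.16 (R 4.3.3) with TMM factors, filterByExpr and the quasi-likelihood test, with 1 coefficient for each of the 4 groups. Calls needed an adjusted p (Benjamini-Hochberg) under 0.05 with a log2 fold change of 0.5 or more in either direction. CPM uses TMM-scaled library sizes. Comparisons between cells of the same mouse had the mouse as a block. Values per mouse were compared by two-sided exact permutation tests. The male comparison was tested on simulated data. Alternatives were DESeq2 1.42.0, other scaling, filters, gates and sample sets, thinning to 300 UMIs per cell, removal of doublets marked by Scrublet (scanpy 1.11.5), and leaving out each library; the ribosomal RNA covariate, the scaling without TMM and 2 denominators were chosen after seeing the data.

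The cells and gene lists were chosen with earlier results of these data known. Named genes were the called genes with the smallest adjusted p in each comparison (or, with fewer than 5 calls, those with the smallest p), the most abundant tested members and every called member of a list, every gene of the study's endothelial list, and, as description, the genes of the rule and those highest in level or ratio. Ifitm2, Ly6e, H2-Q7, Psmb8, Tsc22d1, Tek and the 6th to 10th male genes were named after their values were seen. Coordinates are from RefSeq GRCm38.p6. Some genes that met these rules are not reported here.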

Additional observations from a re-analysis of the deposited data

Results flagged for a closer look

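Among THY-Tau22 females, a single mouse, not always the same, stood far from the other 4 for 6 of the 32 gene and group values checked. Chance flags about 1 in 20 of independent values. The values checked share mice and are not independent, and an excess over chance was not tested. In THY-Tau22 female replicate 4, B2m lay at 2989 CPM against 1300 to 1774 in the others, the paralog-prone H2-Q7 at 109 CPM against 48.5 to 56.0, and the heat shock gene Hspa1a at 747 CPM against 267 to 362. This mouse also had the highest Hbb-bs level, at 11195 CPM, and the lowest mitochondrial ribosomal RNA share of its group, at 6.37%, and the part of either was not tested. H2-K1 was low in THY-Tau22 female replicate 2, at 352 CPM against 532 to 598. Klf2 was high in THY-Tau22 female replicate 3, at 3110 CPM against 1648 to 1964, and Cep290, a centrosome protein, in THY-Tau22 female replicate 1, at 273 CPM against 121 to 163.

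The genotype difference in median mitochondrial mRNA share differed between the sexes by 0.752 percentage points (exact permutation p = 0.0295 over 1120 assignments, 0.354 adjusted over 12 tests). It was 0.575 points in males and -0.177 points in females.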

How the results depend on the processing

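Counts of called genes moved most with the filter and the libraries. With no filter on low counts, 18 genes were called in males, 8 in females, 7 over both sexes, 14 for the interaction, 11 between the sexes, 419 against arterial cells and 378 for vein markers. Without the 2 MB22 libraries the counts were 18 in males, 1 over both sexes and 87 for the interaction. At least 5 endothelial UMIs gave 2 in males and 2 between the sexes, removing doublets gave 2 in males, and DESeq2 gave 2 in males and 2 for the interaction. Thinning gave 48 against arterial cells and 6 for vein markers. With no block for the mouse, the paired comparisons gave 73 and 9 calls, all among the 116 and 22. No other replicate block was possible because the replicate numbers of different mice carry no pairing. Without each library in turn, calls ranged from 0 to 19 in males (19 without WT female replicate 3, 3 without replicate 2 of that group, and 1 without WT male replicate 2 or 4 or THY-Tau22 female replicate 4), 0 to 2 in females, 0 to 1 over both sexes, 0 to 177 for the interaction and 4 to 5 between the sexes.

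The female share difference lost its unadjusted call with at least 500 genes (-3.23 points), at least 5 endothelial UMIs (-2.90), 0 UMIs of other cell types (-1.96), doublets removed (-2.67), all barcodes as denominator (-0.571) and microglia left out (-2.81), and the difference over both sexes with at least 500 genes (-3.37) and all barcodes (-1.64); the cause was not tested. Leaving out single libraries gave -3.51 to -2.0 points in males, -3.46 to -2.15 in females and -3.23 to -2.37 over both. The interaction changed sign with at least 5 endothelial UMIs (0.273) and all 16 libraries (0.458), and ranged from -0.844 to 0.739 without single libraries. Mitochondrial share differences turned to -7.04 points in males and 3.00 in females with the ribosomal RNAs counted; all 16 libraries gave 0.442 in males, past the unadjusted threshold. Without single libraries the mRNA share difference was 0.468 to 0.694 in males and -0.423 to 0.0152 in females, that in median UMIs -20.3 to 91.0 and -55.3 to 17.8, and that in median genes 22 to 68.5 and -37.1 to 13.0. With no filter, Slc2a1 (0.19) and Slco1c1 (0.29) changed sign against arterial cells, and Slc16a1 (-0.28) and Tfrc (-0.22) for vein markers. Without TMM the median of all genes shifted to 0.20 in males.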

Other observations

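Transcripts that belong to other cell types were present in these cells at uneven levels. The 5 ependymal and choroid plexus markers, among them the transthyretin gene Ttr, summed to 4844 CPM in the highest WT male. They summed to 1365 CPM in the highest WT female and to at most 67.9 in THY-Tau22 mice. In each sex the high WT sum came from a single mouse, and the remaining WT mice lay within the range of the THY-Tau22 mice. The 10 astrocyte markers summed to 2147 to 4875 CPM over all 14 mice and the 9 oligodendrocyte markers to 1630 to 5901. The macrophage marker Cd163, the ependymal marker Tmem212 and the lymphatic marker Mmrn1 had 0 UMIs in all cells.

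Ribosomal protein genes had 49 of 52 positive signs in males (median log2 fold change 0.60, 16 at an unadjusted p under 0.05 and higher) and 4 of 52 in females (median -0.35, 7 lower at that p), with 0 called in either sex. With the mitochondrial ribosomal RNA share as a covariate, 35 of 52 were positive in males, 1 was at that p, and the median was 0.14. The 6 tested glycolysis genes were positive in males (median 0.67, 1 at that p) and negative in females (median -0.23, 1 at that p). Of all genes tested, 49.9% were positive in males and 49.0% in females. At that p, 8.24% of all genes were higher in males and 1.76% lower in females.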
